A study of Mus musculus with 2 samples.

Results

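The cytosolic ribosomal protein genes encode the protein parts of the ribosome that translates nuclear mRNAs. They were taken as every gene with an annotated protein-coding transcript whose symbol follows the Rpl or Rps numbering, plus Rplp0, Rplp1, Rplp2 and Rpsa. This gave 84 of the 55536 genes in the gene table: 46 core genes of the large subunit, 31 core genes of the small subunit and 7 paralogs of core genes. RNA sequencing was done on ribosome-reduced total RNA of cortex (left cerebral hemisphere) from 2 mice, both female adults between 8 and 10 months old. Their strain, B6CASTF1/J, is a hybrid of C57BL/6J and CAST/EiJ, so each animal carries a genome copy of both. Animal 1 gave replicate 1 and animal 5 gave replicate 2, although the labels carry the same donor entry for both. All samples form 1 group without treatment or mutant allele, each from 300 ng of RNA with ERCC spike-ins, so no contrast was tested and every value is a description of 2 libraries.

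The ribosome has a small subunit that reads the mRNA and a large subunit that joins amino acids, each made of ribosomal RNA and 1 copy of most of its proteins. Ribosomal protein mRNAs are short and abundant, and vertebrate ones start with a C followed by a run of pyrimidines, the 5′ terminal oligopyrimidine (TOP) tract, through which mTORC1 and Larp1 control their translation. The genes have left many processed pseudogenes, which are intronless copies made from their mRNAs, and reads from shared stretches can be assigned to the gene or to a copy.

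The sequences below, from the GENCODE M21 transcripts, show how alike gene and copy can be. Each stretch is 90 bases of coding sequence, and capitals mark the bases at which gene and copy differ. Rpl10 (chromosome X, 74270812 to 74273135), which completes the large subunit late in its assembly, and its copy Rpl10-ps3 (chromosome 9, 50344201 to 50344968) do not differ anywhere in the coding sequence, and the first 90 bases are shown.
Rpl10: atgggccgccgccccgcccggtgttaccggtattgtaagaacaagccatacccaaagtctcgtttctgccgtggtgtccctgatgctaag
Rpl10-ps3: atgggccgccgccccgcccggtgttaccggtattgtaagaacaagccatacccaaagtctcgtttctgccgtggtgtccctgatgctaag
Rps26 (a small subunit protein near the mRNA exit; chromosome 10, 128624534 to 128626747) and Rps26-ps1 on chromosome 8 differ at 2 coding bases. These are C30T and G270A, with the gene's base first and positions counted from 1 at the start codon, and bases 225 to 314 are shown.
Rps26: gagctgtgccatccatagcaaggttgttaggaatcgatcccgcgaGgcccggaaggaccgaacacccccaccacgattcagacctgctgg
Rps26-ps1: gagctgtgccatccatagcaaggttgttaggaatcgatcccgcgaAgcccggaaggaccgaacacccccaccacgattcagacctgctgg
Rpl3 (a large subunit protein next to the peptidyl transferase centre; chromosome 15, 80077791 to 80091868) and Rpl3-ps1 on chromosome X also differ at 2 bases, C57A and T786C, and bases 12 to 101 are shown.
Rpl3: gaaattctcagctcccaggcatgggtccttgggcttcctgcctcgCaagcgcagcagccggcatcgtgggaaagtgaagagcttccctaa
Rpl3-ps1: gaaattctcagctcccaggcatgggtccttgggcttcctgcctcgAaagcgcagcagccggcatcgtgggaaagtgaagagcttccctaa
Rps7 (a small subunit protein; chromosome 12, 28630854 to 28635953) and Gm6472 on chromosome X differ at 3 bases, T26G, G48A and G123T, and bases 40 to 129 are shown.
Rps7: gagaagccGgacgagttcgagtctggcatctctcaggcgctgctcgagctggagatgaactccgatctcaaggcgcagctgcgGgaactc
Gm6472: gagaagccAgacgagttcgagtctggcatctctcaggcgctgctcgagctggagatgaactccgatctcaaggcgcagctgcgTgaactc

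In all, 580 genes outside the loci of the 84 held a copy of a member's coding sequence at 95% identity or more over at least 80% of its length. They are called near copies here. Of these, 550 are annotated as processed pseudogenes, 15 as transcribed processed pseudogenes, 14 as protein-coding genes and 1 as a lincRNA. Near copies existed for 78 of the 84 genes, and 25 of the copies matched the whole coding sequence without a difference. Rpl21 had 57 near copies, Rpl7a 31, Rpl29 27 and Rps2 26, while Rps3 and Rpl8 had none. Of all 101-base stretches of a member's protein-coding transcripts, a median of 22.4% per gene was also found in transcripts of other genes, and the highest share was 83.6%, in Rpl36a and Rps6.

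RefSeq start sites (GRCm38.p6) were available for 64 of the 84 genes, with 76 promoter entries. The windows below run from 10 bases before to 20 bases from the annotated start, and are shown because their first transcribed bases form a TOP tract. Capitals mark the unbroken run of pyrimidines from the start. Rpl28 and Rpl35 are large subunit genes, Rps27 and Rps6 are small subunit genes, and Rplp2 encodes a stalk protein. Rpl28 is at chr7:4792955-4792984 (plus strand), Rpl35 at chr2:39005112-39005141 (minus), Rps6 at chr4:86857348-86857377 (minus), Rps27 at chr3:90213629-90213658 (minus) and Rplp2 at chr7:141447641-141447670 (plus).
Rpl28: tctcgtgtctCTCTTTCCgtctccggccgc
Rpl35: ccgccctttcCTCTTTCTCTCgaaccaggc
Rps6: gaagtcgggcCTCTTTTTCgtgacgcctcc
Rps27: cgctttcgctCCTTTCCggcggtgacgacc
Rplp2: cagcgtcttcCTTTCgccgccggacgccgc
A C at the start followed by 4 pyrimidines, searched on the gene's strand only, was present in 13 of 76 member entries (17.1%) and in 2.47% of the 32775 entries of other genes. The ETS-type letters CCGGAAG, on either strand within the 300 bases from 250 before to 50 after the start, were present in 35.5% of member entries and 8.80% of the others. TATAAA between 40 and 16 bases before the start, on the gene's strand, was in 1.32% and 2.00%. These matches depend on the exact annotated start base and are letters in a window, not measured sites.

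The data came in 2 kinds of table made from the same libraries. The first table gave expected counts and TPM (transcript abundance per length, scaled to a fixed total) for genes and transcripts, and the second gave estimated counts and TPM for transcripts, summed here to genes. First-table totals were 28327434 counts in replicate 1 and 30234441 in replicate 2. The tissue markers were all detected, with mean TPM from 18.7 for Cldn5 (endothelium) to 1108 for Camk2a (excitatory neurons). Of 4 markers of other cells in the dissection, Ttr (choroid plexus) stood at 171.7 TPM in replicate 1 and 55.7 in replicate 2.

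Of the 84 genes, 81 were detected, which means at least 1 TPM in both libraries in the first table. Their median mean level was 192 TPM, against 16.5 TPM over the 12958 detected nuclear protein-coding genes. 65 of the 81 reached 100 TPM, a level that 7.59% of detected nuclear protein-coding genes reached. Together they took 3.81% of nuclear protein-coding TPM in replicate 1 and 3.61% in replicate 2, but 0.764% and 0.728% of the counts, since their mRNAs are short. The markers Rpl3 (234 and 240 TPM) and Rps6 (213 and 212 TPM), the small subunit protein that S6 kinases phosphorylate, both lay above the median in the first table. In the second table Rpl3 stayed above it with 221.4 and 236.5 TPM. Rps6 had 201.6 and 198.6 TPM there, just below the medians of 204.4 in replicate 1 and 201.6 in replicate 2.

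**Figure D1:**
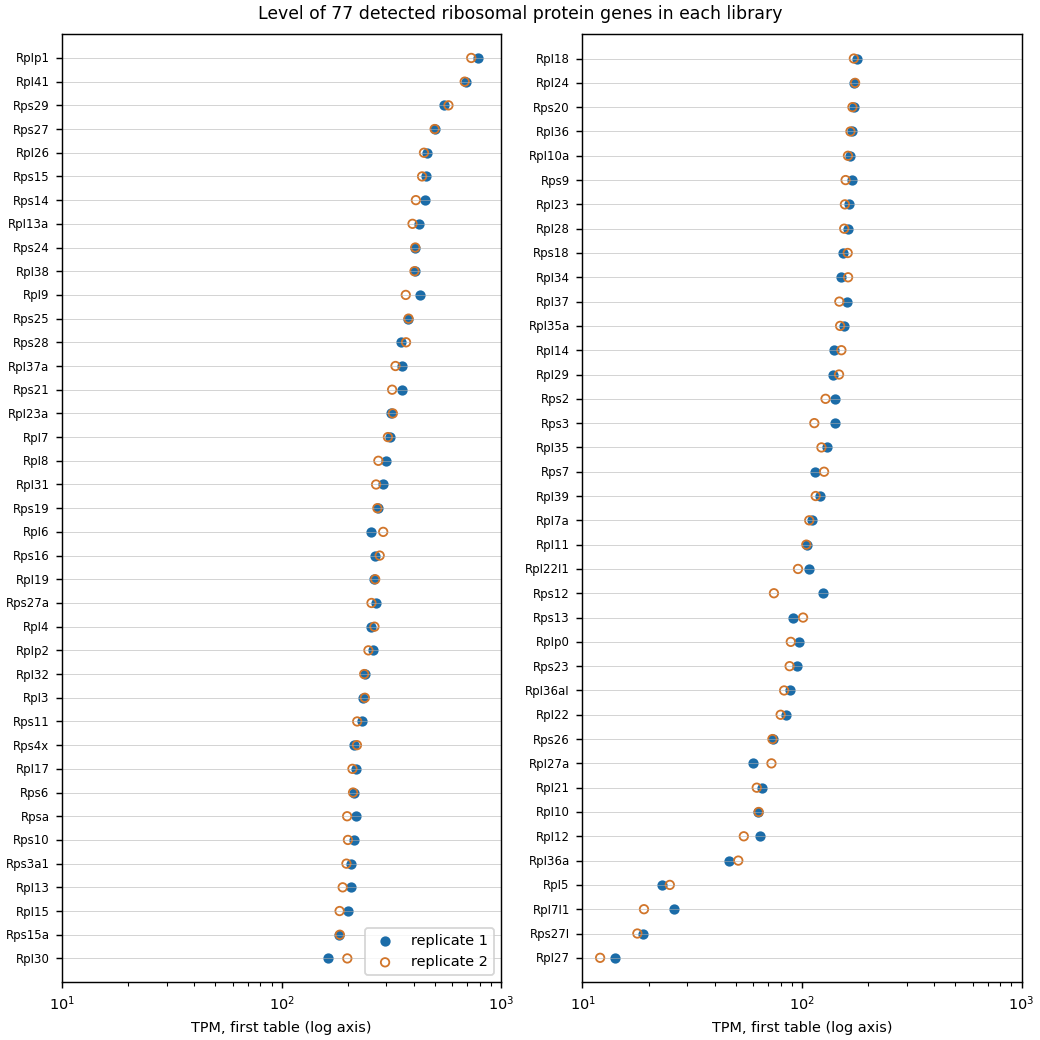
TPM (log axis) of 77 of the detected genes in the first table, ordered by mean, with filled points for replicate 1 and open points for replicate 2. The genes run from Rplp1 at 781 and 731 TPM to Rpl27 at 14.0 and 12.0 TPM, and the replicates lie close together except for a few genes such as Rps12.

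In the first table the highest level belonged to Rplp1, an acidic protein of the stalk that recruits elongation factors, with 781 TPM in replicate 1 and 731 in replicate 2. Rpl41, the shortest ribosomal protein, followed with 694 and 683 TPM. Rps29 had 551 and 576 TPM, and Rps27 had 499 and 498 TPM. Both are small subunit proteins that bind zinc. Rpl26, at the rim of the peptide exit tunnel, had 459 and 445 TPM, and Rps15, in the head of the small subunit, had 453 and 437 TPM. The distance from the top to the bottom of the family was far larger than that between the 2 animals for each of these genes. In the second table Rpl41 was highest, with 905 and 903 TPM, and Rplp1 had 518 and 459 TPM.

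At the low end stood Rpl27 with 14.0 and 12.0 TPM, the paralogs Rps27l with 18.8 and 17.8 TPM and Rpl7l1 with 26.1 and 19.1 TPM, and Rpl5 with 23.0 and 25.0 TPM. Rpl36a had 46.6 and 51.3 TPM and Rpl12, a protein at the stalk base, had 64.5 and 54.3 TPM. Rpl27 was thus listed 55.8-fold below Rplp1 in replicate 1 and 60.8-fold in replicate 2. In the second table Rpl27 had 132 and 137 TPM, and the range over the 77 core genes was 18.6-fold in both libraries.

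The 3 stalk genes did not share a level. Rplp2 had 260 and 249 TPM, and Rplp0, which anchors the stalk to the large subunit, had 96.4 and 88.9 TPM. The second table gave the same order, with Rplp1 at 518 and 459 TPM, Rplp2 at 241 and 230 TPM and Rplp0 at 108 and 102 TPM. Of the pair that carries 5S ribosomal RNA and can bind Mdm2, Rpl11 had 106 and 105 TPM against 23.0 and 25.0 for Rpl5 in the first table. In the second table Rpl11 had 205 and 184 TPM and Rpl5 54.5 and 54.8. With near copies added, first-table counts had the other order, with 3467 and 3402 for Rpl5 and 2089 and 1914 for Rpl11. The 8 genes of the exit tunnel rim had a median of 273 TPM. The core genes of the small subunit had a median of 214 TPM in replicate 1 and 212 in replicate 2, and those of the large subunit 171 and 173 TPM. In the second table the order was the other way, with 204 and 202 TPM for the small subunit and 213 and 219 for the large subunit. With near copies added to their gene, the ratio of the large to the small median was 0.951, against 0.821 without them in the first table.

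The 18 members on the list for Diamond-Blackfan anaemia, a human red cell disorder caused by loss of 1 copy of a ribosomal protein gene, had a median of 199 TPM and ran from Rpl27 to Rps29. Rps19, the first gene found in that disorder, had 274 and 273 TPM in the first table and 189 and 190 TPM in the second.

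The paralogs fell into detected and undetected genes. By gene totals, Rpl22l1 was the only detected paralog above its core gene in both tables. It had 108 and 95.9 TPM where Rpl22, which in the mouse represses Rpl22l1, had 84.2 and 79.9 TPM. In the second table Rpl22l1 had 112 and 99.5 TPM and Rpl22 82.2 and 68.1 TPM. Outside protein-coding transcripts lay 94.6% and 86.5% of the first-table TPM of Rpl22l1, against 2.13% and 6.54% for Rpl22. The protein-coding transcripts of Rpl22l1 thus lay below those of Rpl22 there. The second-table values were 51.3% and 33.9% for Rpl22l1 and 48.2% and 67.6% for Rpl22, which kept the order of the totals. The coding sequences of this pair were 66.9% identical over their alignment, and Rpl22 shared no 101-base stretch with another gene. Rpl36al had 88.5 and 82.9 TPM against 46.6 and 51.3 for Rpl36a in the first table, while the second table put it lower, at 59.2 and 57.7 TPM against 103 and 121. That pair was 87.7% identical, and Rpl36a had 5 near copies.

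Rpl7l1 stood 11.9-fold and 16.0-fold below Rpl7, which had 311 and 305 TPM. Rps27l, a target of p53 in human cells, stood 26.5-fold and 28.0-fold below Rps27. Rpl3l, a paralog of striated muscle, had 7 and 3 counts and 0.41 and 0.17 TPM. Rpl39l, known from the testis, had 0 counts in replicate 1 and 1 in replicate 2. Rpl10l, the testis copy of X-linked Rpl10, had 0 counts in both libraries, and a count of 3 would have been 0.179 TPM in replicate 1 and 0.172 in replicate 2. The 3 muscle and testis paralogs were therefore at or near the floor that this depth can show.

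Between the 2 animals most of the ribosomal protein genes lay within 1.2-fold. The difference is given as log2 of replicate 2 over replicate 1 after TMM scaling, over genes that averaged 50 counts or more, which 81 of the 84 did. The median absolute difference was 0.11 over the 81 genes and 0.15 over all 14127 genes. Past 1.2-fold were 4 of the 81, while 27.4% of all genes passed that fold. None of the 4 was higher in replicate 2, where 14.3% of all genes were, and 4 were lower, where 13.1% were. With 1 library per animal none of these differences has a replicate check. All genes were not matched to the family for depth. The median error from counting alone was 0.05 over the 81 genes, while Eif4ebp1, with 51 and 58 counts, had 0.28. How much such low counts add to the values of all genes was not tested.

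The signs were uneven: 69 of the 81 were lower in replicate 2, with a median of -0.11 against -0.02 over all genes, of which 54.4% were lower, but scaling to the spike-ins turned the signs, with 77 of 81 higher. Most genes turned with them: 11.9% of all genes were lower in replicate 2 on that scale. There the median of all genes moved to 0.25 and that of the 81 genes to 0.17. A change of scaling shifts every gene by almost the same amount, so the distance of the family from all genes stayed at -0.09. That follows from the scaling and is no separate result. The 4 markers of other cells did not move together: on the TMM scale Ttr was at -1.70, but Igf2 (meninges) was at 0.16, and Hbb-bs and Hba-a1 (red blood cells) were at 0.10 and 0.18. Their median was 0.13, and their summed level was 516 TPM in replicate 1 and 470.3 in replicate 2. Their part in the small difference was not tested, and in bulk tissue fewer cells of a type and less RNA per cell cannot be told apart.

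Rps12 stood apart. This small subunit protein gene (chromosome 10, 23785183 to 23787275) had 985 counts and 125 TPM in replicate 1 and 658 counts and 74.5 TPM in replicate 2, a log2 difference of -0.72 with a counting error of 0.07. The second table gave the opposite order, with 979 counts in replicate 1 and 1175 in replicate 2. Its near copy Rps12-ps3 on chromosome 19, annotated as protein-coding and without a difference from the Rps12 coding sequence, had 208 counts in replicate 1 and 647 in replicate 2 in the first table. With all 22 near copies added, the log2 difference of Rps12 was -0.13.

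The other 3 genes past 1.2-fold were Rps3, Rpl9 and Rpl7l1. Rps3, a protein at the mRNA entry channel, had 3987 and 3557 counts and a difference of -0.30. It has no near copy and shared no 101-base stretch, and the second table gave -0.26. Rpl9 had 4969 and 4456 counts and a difference of -0.29, and Rpl7l1 had 677 and 608 counts and -0.29. Rps2, which frames the mRNA entry channel with Rps3, came next with 2280 and 2121 counts and -0.24. Adding near copies left Rps3, Rpl9 and Rpl7l1 as the 3 genes past 1.2-fold.

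Rpl30 had the largest difference upwards, with 1390 counts in replicate 1 and 1799 in replicate 2, or 0.24 with a counting error of 0.05. Its near copy Rpl30-ps9 went from 136 counts to 43.7, and with near copies added the difference was 0.14. Next were Rps13 with 0.09, Rpl27 with 0.07, Rpl34 with 0.04 and Rpl29 with 0.04, each below or near its counting error. The deposited credibility intervals of TPM did not overlap between the animals for 10 of the 81 genes, against 19.8% of all genes. Among them were Rpl8, Rpl9, Rpl27a, Rpl30, Rplp1, Rps3, Rps14, Rps21 and Rpsa.

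**Figure D2:**
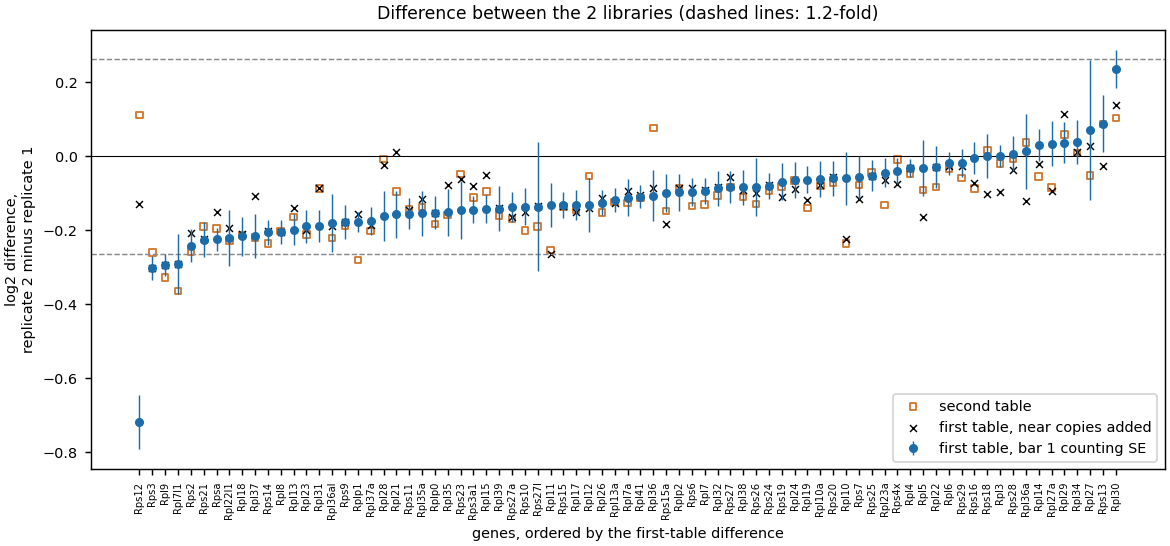
Log2 difference of replicate 2 minus replicate 1 for 77 genes, ordered by the first table's value (circles, with bars of 1 counting standard error), with the second table (squares) and the first table with near copies added (crosses). Rps12 lies at -0.72 in the first table and at -0.13 with near copies, and 73 of the 77 circles are within the dashed lines at 1.2-fold.

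The table types placed part of the family at different levels, with a median absolute log2 difference of 0.26 over the 81 genes and 0.13 over all genes compared. On TPM summed to genes and rescaled to nuclear protein-coding genes, 15 of 81 genes differed past 1.5-fold in both libraries between the second and first table, where 3.22% of the 14360 genes compared did. 14 were higher in the second table, where 2.65% of all genes were, and 1 was lower, where 0.571% of all genes were. The median difference was 0.15 (log2) over the 81 genes and -0.05 over all genes. The libraries are the same in both tables, so these are differences of method, and no test applies.

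Rpl27, a large subunit gene (chromosome 11, 101442298 to 101445529), differed most. It had 109 and 126 counts in the first table and 1166 and 1249 in the second, a ratio of 10.7 in replicate 1 and 9.90 in replicate 2. Its 7 near copies, of which Rpl27-ps3 and Gm11518 match its whole coding sequence, held 1031 and 1151 counts in the first table and 9.59 and 41.7 in the second. Gene and copies together thus came to almost the same total in both tables.

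Rpl10, whose sequence opens the set above, had 798 and 842 counts in the first table and 3737 and 3526 in the second. Rpl10-ps3, annotated as protein-coding, had 2836 and 2580 counts in the first table and 0 in the second. Rps23, a protein of the decoding centre, had 675 and 671 counts in the first table and 2771 and 2978 in the second. Its copy Rps23-ps1 on chromosome 3 had 2507 and 2674 counts in the first table and 529 and 473 in the second. At 425 and 436 TPM it was listed in the first table at more than 4 times the level of Rps23 itself.

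Rpl27a had 1079 and 1215 counts in the first table and 1791 and 1876 in the second. Rpl21 had 1019 and 1005 counts against 2615 and 2718, with copies holding 2976 and 3421 counts in the first table and 1539 and 1830 in the second. Rpl37 had 1222 and 1158 counts against 1983 and 1891, and its copy Rpl37rt, with 1 coding mismatch, 1801 and 1927 against 1063 and 1243. Rps26, shown above, had 675 and 701 counts against 1259 and 1279, and Rps26-ps1 had 600.3 and 607 in the first table and 0 in the second. Rpl31 and Rpl28 were also among the 14, with the identical copies Rpl31-ps8 (943 and 1147 counts in the first table, 0 in the second) and Rpl28-ps1 (1115 and 1308, then 509 and 597). The remaining genes that were higher were Rpl5, Rpl11, Rpl14, Rpl36a and Rpl38. Rpl38 differed in TPM more than in counts, with 1851 and 1921 counts in the first table and 2033 and 2092 in the second. Its near copies held 79.2 and 70.7 counts in the first table.

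**Figure D3:**
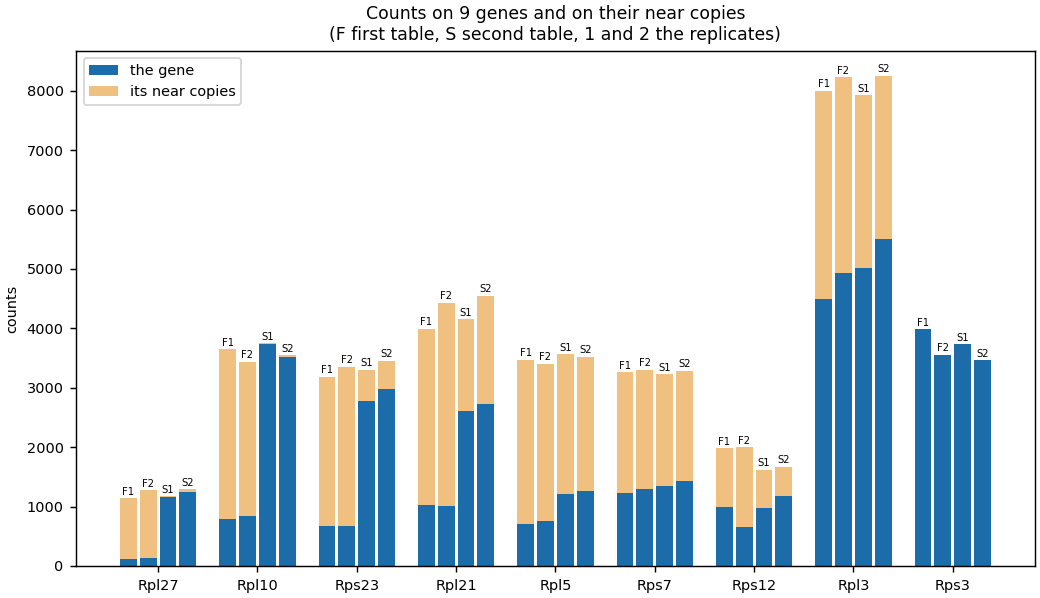
Counts on 9 genes (lower part of each bar) and on their near copies (upper part) in the first table (F) and the second table (S) for replicates 1 and 2. For Rpl27, Rpl10 and Rps23 the lower part grows from the first to the second table while bars keep about the same height, Rpl5, Rps7 and Rpl3 keep a large upper part in both, and Rps3 has no near copy.

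Summed over the family, members held 174567 counts in replicate 1 and 177338 in replicate 2 in the first table, and 188915 and 192507 in the second. Near copies held 51847 and 53000 counts in the first table and 30528 and 31090 in the second. Near copies thus took 22.9% and 23.0% of the family's counts in the first table and 13.9% in both libraries in the second. The 28 copies without a mismatch or gap had 16410 counts in replicate 1 in the first table, and their second-table counts were 38.1% of that. For the 81 copies with 1 to 3 mismatches and no gap the value was 60.3%, and for the 471 others 79.1%. The summed counts of a class thus lay closer together between the tables where its copies differed more from their genes. Single copies could depart from this, such as Gm15500 below, which is identical to its gene's coding sequence and kept most of its counts. In replicate 2 the 3 values were 35.7%, 61.3% and 79.2%.

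With near copies added, counts agreed far better between tables. The ratio of second to first counts per gene ran from 0.242 to 10.7 in replicate 1 for the gene alone and from 0.333 to 1.12 with its copies. The ratio lay between 0.8 and 1.25 for 61 of 81 genes alone and 76 with copies in replicate 1, and for 59 and 76 in replicate 2. Among the 12809 nuclear protein-coding genes that averaged 50 counts or more, 95.3% and 95% lay in that range without any copies added, around medians of 1.07 and 1.08. On the rescaled TPM, 2 genes were past 1.5-fold with near copies added, Rpl36 and Rps15a, both lower in the second table. The genes with at least 50% of their 101-base stretches shared were not all affected: 4 of those 16 were past 1.5-fold, and none of the 20 genes with under 10% shared was. The median absolute log2 differences of these sets were 0.16 and 0.18, so the typical gene did not follow the order of the counts.

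**Figure D4:**
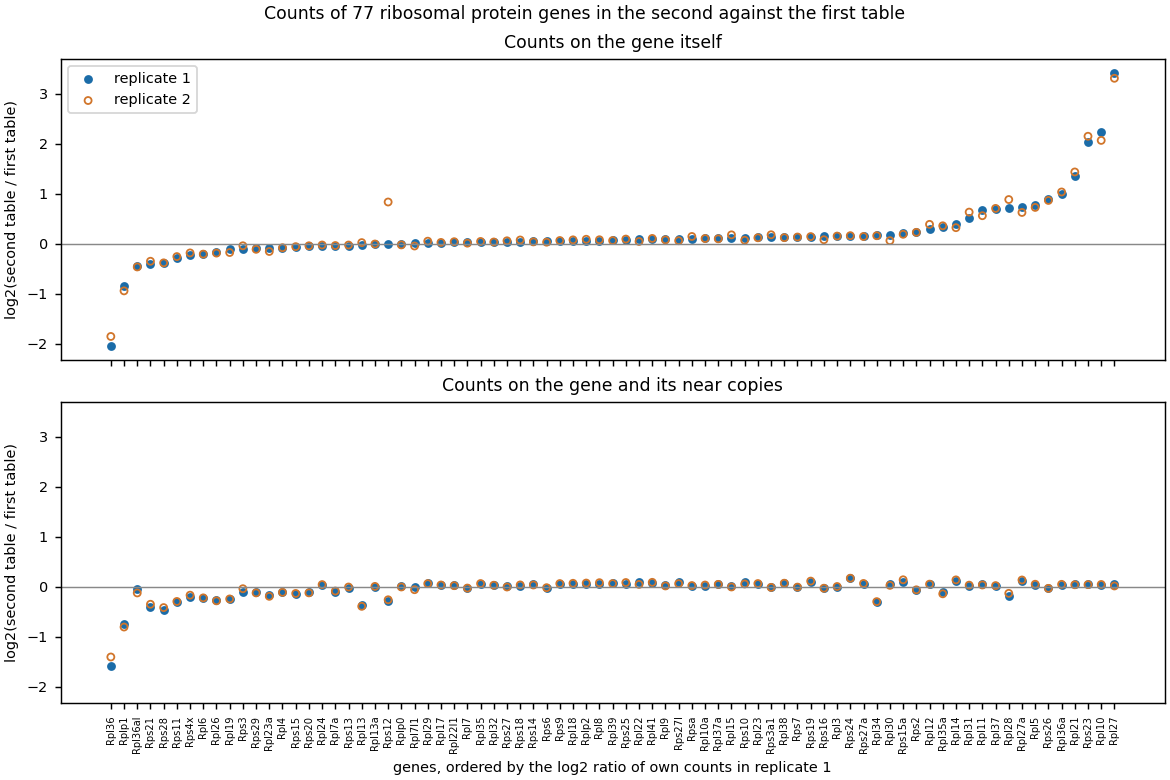
Log2 ratio of second-table to first-table counts for 77 genes, in both replicates, for the gene alone (top) and with its near copies (bottom), in the same gene order. The upper panel runs from Rpl36 (ratio 0.242 in replicate 1) to Rpl27 (ratio 10.7), and in the lower panel 72 of the 77 ratios of each replicate are between 0.8 and 1.25.

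The 5 genes outside that range with near copies were the same in both libraries, and all were lower in the second table. Rpl36 had 869 and 887 counts in the first table and 210.1 and 246 in the second. Rplp1 had 5657 and 5501 against 3136 and 2867. Rps21, which has 1 near copy and shared no 101-base stretch, had 1883 and 1771 against 1429 and 1391, and Rps28 had 1806 and 1996 against 1387 and 1533. For Rpl13 the gene itself had 2564 and 2458 against 2521 and 2499, and its copies 1598 and 1692 against 718 and 665. The counts of Rpl36, Rplp1, Rps21 and Rps28 thus still differed between the tables after their near copies were added. Copies outside the definition of a near copy were not added in this comparison. Whether they or any other source held these counts was not tested.

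Some near copies kept their counts in both tables. Gm15500 on chromosome 7, a transcribed processed pseudogene identical to the Rpl5 coding sequence, had 2757 and 2639 counts in the first table and 2347 and 2259 in the second, more than the 708 and 762, and 1211 and 1262, of Rpl5 itself. Gm6472, the copy of Rps7 shown above, had 2020 and 1994 counts against 1226 and 1296 for Rps7 in the first table, and 1865 and 1857 against 1352 and 1423 in the second. Gm10275 (a copy of Rpl12) had 1665 and 1655 counts, then 1574 and 1501. Gm2000, a protein-coding copy of Rpl35, had 1090 and 1191, then 1139 and 1258.

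Rpl3-ps1 had 3503 and 3286 counts, then 2907 and 2752, beside 4492 and 4940, then 5017 and 5498, for Rpl3. Rps2-ps13 on chromosome X, with 7 coding mismatches, had 3085 and 2827 counts in the first table, above the 2280 and 2121 of Rps2, and 2766 and 2568 in the second. The near copies of 14 members in replicate 1 and 13 in replicate 2 held more counts than the member in the first table, as did those of 5 members in each library in the second. A gene's level and that of its copies cannot be told apart from these tables where the sequence is shared. Reads from CAST/EiJ alleles were also assigned on the reference sequence.

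The transcript tables split each gene by annotated transcript class. In the first table protein-coding transcripts took 83.9% of the family's TPM in replicate 1 and 82.2% in replicate 2, retained-intron transcripts 8.19% and 8.90%, processed transcripts 4.94% and 5.41% and transcripts annotated for nonsense-mediated decay 2.93% and 3.45%. The second table gave protein-coding transcripts 74.9% and 74.2% and processed transcripts 12.8% and 12.5%.

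Single genes departed widely from this. Outside protein-coding transcripts lay a mean of 98.4% of the TPM of Rps16, 98.1% of Rps18, 96.3% of Rpl35, 96.2% of Rps20 and 93.5% of Rps26 in the first table. In the second table the values were 86.2%, 75.8%, 97.9%, 98.0% and 96.7%. Over 50% in both tables and libraries was seen for 10 genes, which besides these 5 were Rpl23, Rpl24, Rpl37, Rps13 and Rps23. For 6 genes the tables differed by over 50 percentage points, among them Rpl13a, Rpl14, Rpl22, Rpl27a and Rps28. Rps28 had 0.20% in the first table and 79.8% in the second. These transcripts overlap the coding ones, so the split of a gene is less certain than its total. No split by transcript class is given here for all genes, so whether these values are particular to the family was not tested.

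**Figure D5:**
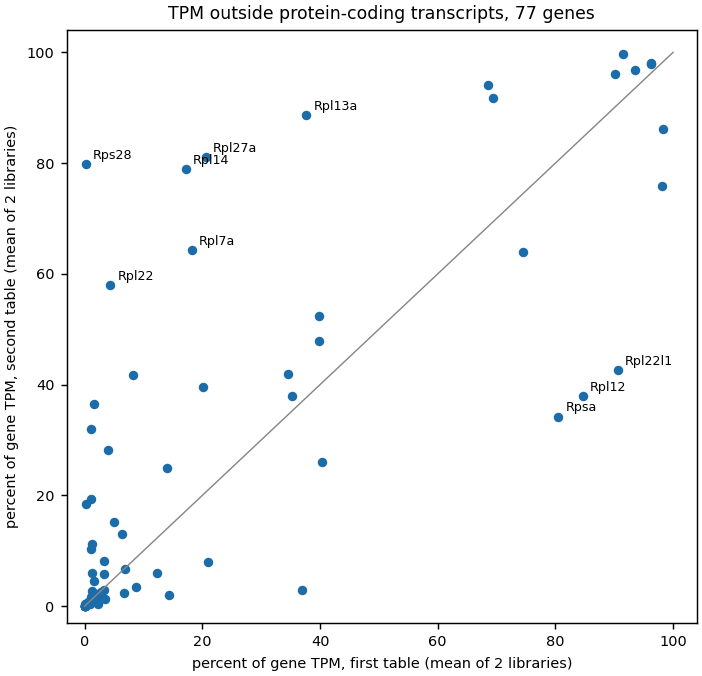
Percent of each gene's TPM outside protein-coding transcripts in the first table (x axis) and in the second table (y axis), as the mean of 2 libraries, with a line of equality for 77 genes. Rps28 lies at 0.20% and 79.8%, Rpl13a at 37.7% and 88.6% and Rpl22l1 at 90.6% and 42.6%.

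Introns of ribosomal protein genes are hosts of small nucleolar RNAs, which guide the modification of ribosomal RNA. Of the 1507 annotated snoRNA genes, 58 lie inside 30 of the 84 genes on the same strand, with 5 in Rpl4 and 4 in Rpl13a. Of the 58, 35 had an effective length of 0 in the first table and could not be counted, and 9 had at least 1 count in both libraries.

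Genes that work with the family were described from fixed lists, beside the 27.4% of all genes past 1.2-fold between the animals. Of the core ribosomal genes outside the symbol rule, Fau (a fusion that yields a small subunit protein) had 360 and 356 TPM and Rack1 (a scaffold on the small subunit) had 130 and 116 TPM. Neither passed 1.2-fold. Among 18 other TOP mRNAs the median was 93.5 TPM and 1 was past 1.2-fold, Cct4 (a chaperonin subunit) at -0.48. The highest were Eef1a1, the factor that brings tRNA to the ribosome, with 1100 and 1117 TPM, Tpt1 with 489 and 486, and the translocation factor Eef2 with 437 and 472. Hnrnpa1, an RNA-binding protein, had 117 and 146 TPM.

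The 18 translation initiation genes had a median of 100 TPM and 1 was past 1.2-fold. That gene was Eif3b, a scaffold of eIF3, at -0.27. Eif4a2 (an RNA helicase) had 447 and 454 TPM, Eif1 (start codon selection) 405 and 390 TPM, and Eif4g2 321 and 269 TPM. The 35 ribosome biogenesis genes, which build rather than form the ribosome, had a median of 20.4 TPM, with 3 higher and 2 lower past 1.2-fold. Rrp1 had 157 and 165 TPM, Ncl (nucleolin) 64.4 and 78.7 TPM and Ubtf (a factor of RNA polymerase I) 55.8 and 48.5 TPM. Nop14 had the largest difference, 0.43, and Nop56 followed with 0.42.

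Among 13 genes of mTORC1 and TOP regulation the median was 28.0 TPM, with 1 higher and 2 lower. Rps6kb2, an S6 kinase, had 248 and 399 counts and a difference of 0.55, Eif4ebp2 (a repressor of cap-dependent initiation) was at -0.44 and Rheb (the activator of mTORC1) at -0.27. Of 9 noncoding snoRNA hosts, 2 of the 8 with 50 counts were higher and 1 was lower. Snhg1 and Snhg5 were at 0.60 and 0.59 with counting errors of 0.17, and Snhg8 at -0.46. Gas5, itself a TOP RNA, had 85.6 and 100.3 TPM.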

How the data were processed

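Ribosome-reduced total RNA of 2 animals was sequenced, 1 library each. Per the deposited readme, the tables use build mm10 and GENCODE M21, with tools not given in the sources used here. Expected counts (first table) and estimated counts (second table) were deposited by the authors without normalization, and reads that fit several features were shared out among them. TPM values were deposited in both tables, and the authors' scaling gives each library an equal sum. The credibility bounds are deposited scores whose level is not stated. Effective length was transcript length minus 100 bases in the first table and minus 248 in the second, which raises the TPM of short genes.

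The genes and all lists were chosen with earlier results of these data known. Detected means at least 1 TPM in both libraries. Counts were rounded and scaled with edgeR 4.0.16 (TMM, log2 CPM, prior count 1, mean of at least 50 counts); DESeq2 1.42.0 size factors were an alternative. The counting error of a log2 difference covers counting only. Tables were compared as log2(TPM + 1), rescaled to nuclear protein-coding genes in both. Near copies came from blastn 2.17.0 on the strand of the gene, at 95% identity over 80% of the coding sequence. The TMM scaling was tried on simulated counts with a known change and counting noise only. That cannot tell which scaling suits these libraries.

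Named by rule were the 6 highest and 6 lowest detected genes, all paralogs, the 5 largest differences each way between animals, the 6 largest between tables, the 5 with most TPM outside protein-coding transcripts, the stalk genes, Rpl3, Rps6, the 5 highest pseudogenes and, per related list, the 3 highest genes and 2 largest differences. Other genes and copies were named after their values were seen, as were the promoter letters searched.
A few genes are not reported here by name, and the figures leave them out.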

Additional observations from a re-analysis of the deposited data

How the results depend on the processing

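No paired analysis was possible because there is 1 group and no contrast. The level (192 TPM) was 202.8 in the second table, 398 rescaled to nuclear protein-coding genes, 227 with named pseudogenes added, 288 with near copies added (an alternative chosen after seeing the data, as is every one with near copies) and 182 without the filter on low values; leaving out a replicate gave 190 to 199.8. The ratio of large to small subunit medians (0.821) was 1.07 in the second table, 0.949 with named pseudogenes and 0.951 with near copies, and 0.796 to 0.819 without a replicate. The coefficient of variation over core genes (62.3%) was 60.7%, 54.0% and 43.0% in the same settings, and 62.2% to 62.6% without a replicate. The share of TPM (3.71%) was 4.31% in the second table and 4.96% with near copies, and that of counts (0.746%) was 0.966% with near copies. The median difference between animals (-0.11) was -0.067 with library totals and reversed to 0.17 with ERCC spike-in counts; genes past 1.2-fold (4) were 2 and 14 there, and 1 past 1.5-fold. On the ERCC scale 51.2% of all genes were past 1.2-fold. For the other alternatives no share of all genes is given, so their counts of genes cannot be set beside one. The median difference between tables (0.15) was 0.066 with TPM as deposited, 0.052 with named pseudogenes, 0.0016 with near copies and 0.13 without the filter, and 0.13 to 0.15 without a replicate; genes past 1.5-fold (15) were 7 with named pseudogenes and 2 with near copies. Named pseudogenes held 13.8% of the TPM of members and named pseudogenes in the first table and 6.23% in the second. In counts this was 11.9% and 5.56%. Near copies by sequence held 26.1% and 15.9% of the TPM of members and near copies. Protein-coding transcripts took 83.1% of TPM, 74.6% in the second table and 84.8% in counts. In all, 46 of 81 alternative values stayed within their yardstick: 1 SD between replicates for levels, shares and table differences, the 95% counting interval of the summed member counts for the difference between animals, and 1.5 times the main value for counts of genes. Shares are means of 2 libraries, so leaving out 1 replicate always keeps them within 1 SD. Those values could not have moved, and the tally does not measure robustness. Where near copies or pseudogenes were added, the change follows from the added reads; for the other settings the cause was not tested. Pseudogenes were defined by symbol alone, since no description was at hand, so that alternative was not run. At 3 counts or fewer, as for Rpl3l in replicate 2, Rpl39l and Rpl10l, depth limits what can be said.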
